A study of Mus musculus with 9 samples.

Results

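Il1b, which encodes the cytokine interleukin-1 beta, was followed here with 8 genes of the same pathway. These were Il1rn, Il1r2, Il18, Casp1, Casp4, Nlrp3, Pycard and Aim2. The 9 genes were chosen by name as the core of the interleukin-1 (IL-1) and inflammasome pathway, out of 23337 genes counted in CD11b+ bone marrow cells, and each of the 9 was found in every library and passed the filter on low counts. Male C57BL/6 mice, 3 to 6 weeks old in the study's methods, formed 3 groups of 3. PBS mice received the vehicle, and EnzR EVs mice received extracellular vesicles shed by CWR-R1 prostate cancer cells that are resistant to enzalutamide (10 µg of vesicle protein), each as 100 µl into the tail vein on days 1, 3 and 5. EnzR EVs + HDL NPs mice received the same vesicles and, on days 0, 2 and 4, gold-core nanoparticles made to resemble high-density lipoprotein (1 µM in the sample labels, 100 µM in the methods). No group received HDL NPs without EnzR EVs. Marrow was taken 24 h after the last injection, cells carrying the myeloid surface protein CD11b were selected with magnetic beads, and 1 RNA library was made per mouse.

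In myeloid cells, interleukin-1 beta and interleukin-18 are made as inactive precursors. A sensor such as NLRP3 or AIM2 detects a disturbance, recruits the adaptor ASC (encoded by Pycard) and so activates caspase-1, which cuts the precursors into active cytokine and opens gasdermin D pores. Because the key steps are protein cleavage and assembly, mRNA levels describe how much of each part the cells could make and not whether an inflammasome was active. Neutrophils and monocytes, the main CD11b+ cells of marrow, are known sources of Il1b, and neutrophils of the decoy receptor Il1r2.

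Casp1 and Casp4 lie side by side on the plus strand of chromosome 9, and their levels followed each other closely across mice. Casp1 occupies bases 5298517 to 5307265 and Casp4 bases 5308828 to 5336783 (GRCm38, the assembly of mm10), so 1563 bases separate them. The 250 bases before the RefSeq start sites (GRCm38.p6) of this pair are shown first. Those of Il1b and of the sensors Nlrp3 and Aim2 follow. Capitals mark matches to the binding motifs of NF-kB (the kappa-B motif) and C/EBP (TTNNGNAA) on either strand. The windows are chr9:5298267-5298516 (plus strand), chr9:5308599-5308848 (plus strand), chr2:129371140-129371389 (minus strand), chr11:59541319-59541568 (plus strand) and chr1:173420354-173420603 (plus strand).
Casp1: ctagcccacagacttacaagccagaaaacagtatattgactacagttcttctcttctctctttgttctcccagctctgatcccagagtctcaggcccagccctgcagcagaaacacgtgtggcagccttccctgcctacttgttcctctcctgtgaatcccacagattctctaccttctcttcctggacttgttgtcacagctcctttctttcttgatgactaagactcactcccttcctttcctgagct
Casp4: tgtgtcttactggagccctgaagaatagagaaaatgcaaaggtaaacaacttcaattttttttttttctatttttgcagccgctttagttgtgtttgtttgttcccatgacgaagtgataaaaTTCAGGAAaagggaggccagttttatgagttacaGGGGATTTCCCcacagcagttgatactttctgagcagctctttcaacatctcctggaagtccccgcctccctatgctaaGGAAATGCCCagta
Il1b: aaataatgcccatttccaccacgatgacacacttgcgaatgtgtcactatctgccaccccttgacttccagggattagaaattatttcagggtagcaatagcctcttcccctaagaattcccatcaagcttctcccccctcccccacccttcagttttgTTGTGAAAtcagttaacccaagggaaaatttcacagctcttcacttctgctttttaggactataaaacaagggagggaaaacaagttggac
Nlrp3: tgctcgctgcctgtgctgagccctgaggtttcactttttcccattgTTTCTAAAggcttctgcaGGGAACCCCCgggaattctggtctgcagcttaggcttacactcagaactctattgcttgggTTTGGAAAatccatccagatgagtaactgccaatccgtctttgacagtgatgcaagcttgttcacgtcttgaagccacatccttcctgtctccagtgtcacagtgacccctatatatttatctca
Aim2: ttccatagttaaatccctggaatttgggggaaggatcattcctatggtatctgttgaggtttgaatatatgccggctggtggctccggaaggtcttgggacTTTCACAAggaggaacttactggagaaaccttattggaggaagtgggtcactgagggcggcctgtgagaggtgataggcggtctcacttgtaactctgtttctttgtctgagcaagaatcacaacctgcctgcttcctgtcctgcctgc

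The Casp4 window held 3 NF-kB matches, 2 of which overlap, while the neighbouring Casp1 window held none of the 5 motifs searched. RefSeq gives the 9 genes 13 windows of 250 bases before to 50 bases after a start, and several of these overlap. NF-kB matches were found in 5 of the 13, belonging to Il1rn, Casp4 and Nlrp3, against 4.79% of all 32851 windows. Of the 2 Nlrp3 windows, only the printed one held an NF-kB match. The other (chr11:59542436-59542685, plus strand) held a C/EBP match. C/EBP matches, in 9 of the 13 windows, were frequent everywhere (40.7% of all windows). The interferon response motif was in 0 of the 13 windows and in 3.44% of all. The AP-1 motif TGANTCA was found only for Il1rn (7.81% of all windows) and the GAS motif TTCNNNGAA only for Il1r2 (8.3% of all windows). These matches describe letters in the window and were not tested as sites.

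The libraries differed in depth and in ribosomal RNA. Total counts ran from 2575776 to 18110561, and the 9 genes together held between 946 and 16424 counts per library. The share of counts on Rn45s, which encodes precursor ribosomal RNA, was 14.2% in EnzR EVs replicate 3, 20.3% in PBS replicate 1 and 42.7% in EnzR EVs replicate 1. It was at most 2.87% in the other 6 libraries, which include every EnzR EVs + HDL NPs library. Levels below are CPM, counts scaled to the library's size by edgeR's TMM factors (TMM CPM), on which the floor of 3 counts stood between 0.160 and 1.65. Itgam, the gene for CD11b itself, was at 1389 to 2006 TMM CPM in every library, and the summed markers of neutrophils and monocytes far exceeded those of B, T and NK, erythroid and dendritic cells (each at most 76.8 TMM CPM), of platelets (at most 104) and of marrow macrophages (401 to 907). The erythroid marker Hba-a1 was at 0 in all 9 libraries. In bulk RNA, fewer cells of a type and less RNA per cell cannot be told apart.

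Relative to transcript length, Il1b was the highest of the genes in each group and Il1r2 the next. On the scale of mean TMM CPM per kilobase of the principal GENCODE transcript, Il1b stood at 197 ± 16.5 (SD, n = 3) in PBS mice, 174 ± 41.4 in EnzR EVs mice and 204 ± 72.2 in EnzR EVs + HDL NPs mice. Il1r2 stood at 83.8 ± 18.7, 77.6 ± 26.6 and 94.5 ± 11.7 on the same scale. These 2 genes did not overlap in any group. Nlrp3, Il1rn and Casp1 came next, between 24.9 and 41.5 as group means, and changed places between groups. In EnzR EVs mice all 3 values of Il1rn (28.0 to 30.0) lay above those of Nlrp3 (23.3 to 26.7), while the other pairs of these genes overlapped within each group. Casp4 followed at 16.8 to 27.1, and Aim2 and Il18 were at the bottom, with group means down to 7.58 and 7.01. Pycard was placed with less certainty, because the GENCODE transcript of 3800 bases runs past the RefSeq end of the gene: its mean in PBS mice was 15.4 TMM CPM per kilobase on the former length and 27.3 on the 2135 bases up to the RefSeq end.

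The 9 genes were compared between EnzR EVs and PBS, between EnzR EVs + HDL NPs and PBS, and between EnzR EVs + HDL NPs and EnzR EVs, always in that order. By edgeR's quasi-likelihood test 0 of the 9 passed an adjusted p of 0.05 in each comparison, where 0.00% of the 12553 tested genes passed. DESeq2 on the same genes also called 0 of the 9, beside 0.0876%, 0.0637% and 0.00797% of all genes. With the replicate number as a block, 1 gene of all passed edgeR's test between EnzR EVs and PBS, and 0 of the 9. At an unadjusted edgeR p under 0.05 there were 1, 1 and 2 of the 9, beside 3.47%, 2.13% and 10.6% of all genes. In the first comparison, 2 of the 9 log2 fold changes were positive and 7 negative (46.5% of all genes were positive), with a median of −0.17 beside −0.03 for all genes. In the second, 8 were positive and 1 was negative (48.9% of all genes positive), with a median of 0.17 beside −0.01. In the third, 8 were again positive and 1 negative (52.8% of all genes positive), with a median of 0.43 beside 0.03. The comparisons share libraries, so the 3 sets of directions are not independent. Without the 3 libraries with Rn45s above 10%, which leaves a single EnzR EVs mouse, the counts of positive and negative values became 7 and 2, 6 and 3, and 3 and 6.

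**Figure D1:**
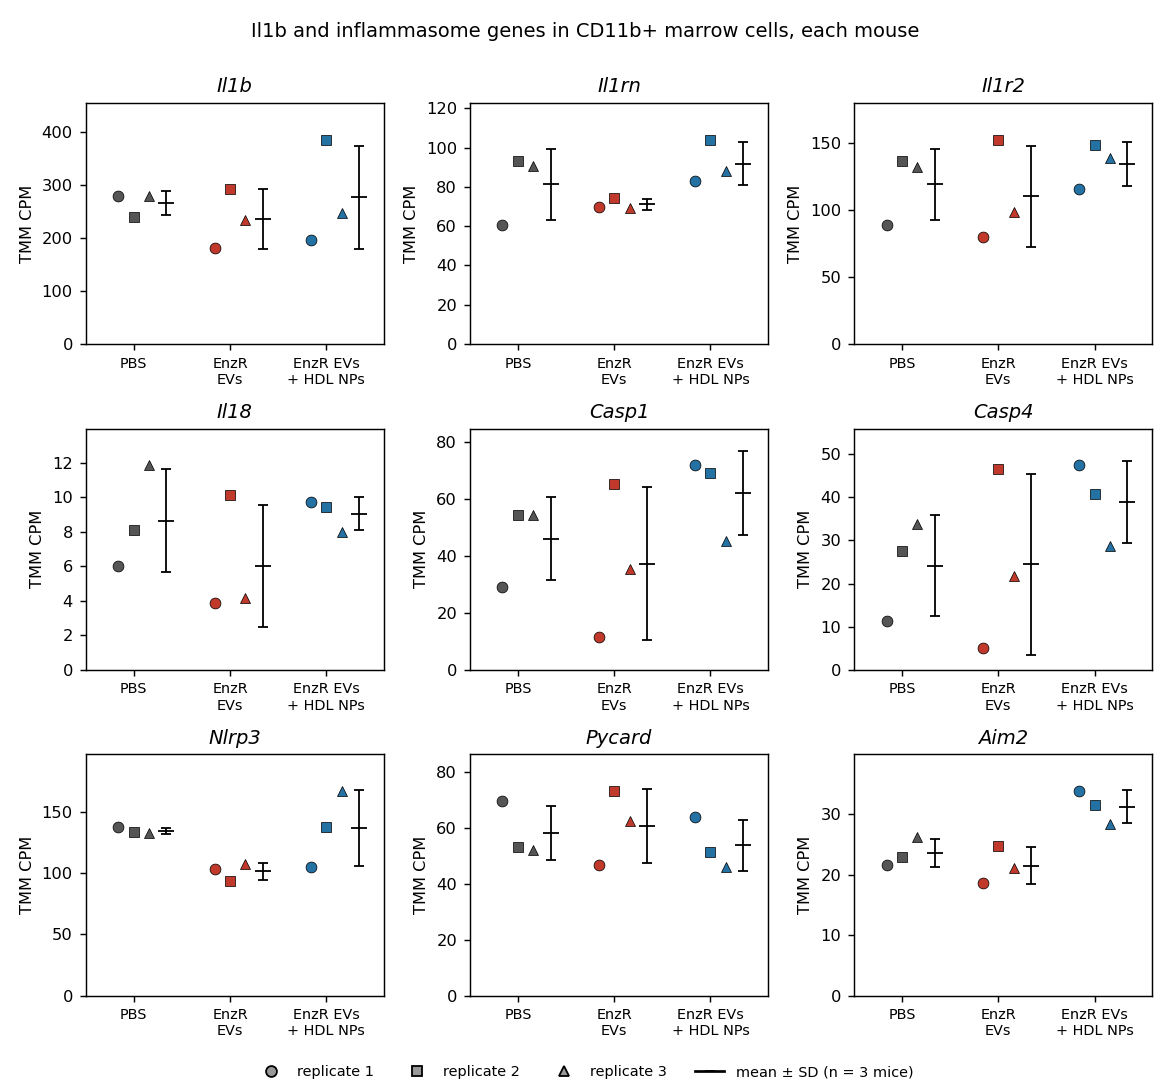
TMM CPM (y axis, starting at 0) of the 9 genes in each mouse of the 3 groups (x axis), with the mean and SD of 3 mice beside the points. Aim2 in EnzR EVs + HDL NPs mice lies above all other mice (28.4 to 33.8), Nlrp3 in EnzR EVs mice lies below all PBS mice (93.5 to 107), and EnzR EVs replicate 1 is the lowest of 9 mice for 6 of the genes.

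Il1b, the ligand that gives the pathway its name, did not separate the groups. Its level was 279, 241 and 280 TMM CPM in the PBS mice, 181, 293 and 234 in the EnzR EVs mice, and 197, 386 and 248 in the EnzR EVs + HDL NPs mice (replicates in the order 1, 2, 3, here and below). The lowest and the highest of the 9 mice both received EnzR EVs, and the ranges of the 3 groups overlapped. The log2 fold change was −0.17 (standard error, SE, 0.257, adjusted p = 0.934 by edgeR) between EnzR EVs and PBS, with an interval of −0.74 to 0.40. With 1 mouse left out it ran from −0.33 (without EnzR EVs replicate 2) to −0.011 (without EnzR EVs replicate 1), and it was 0.17 without the 3 libraries rich in Rn45s. The value was 0.056 between EnzR EVs + HDL NPs and PBS, with an interval of −0.51 to 0.62 (adjusted p = 1.00 by edgeR). Between the EnzR EVs groups it was 0.23, with an interval of −0.34 to 0.80 (adjusted p = 0.683 by edgeR). All intervals are at 95%.

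Il18, the other cytokine activated by caspase-1, was scarce. It was at 5.98, 8.11 and 11.8 TMM CPM in the PBS mice, 3.84, 10.1 and 4.14 in the EnzR EVs mice, and 9.74, 9.42 and 7.96 in the EnzR EVs + HDL NPs mice. EnzR EVs replicates 1 and 3 were the 2 lowest of the 9 mice, and replicate 1 rests on 7 counts. Its log2 fold change between EnzR EVs and PBS was −0.42, with an interval of −1.26 to 0.42 (adjusted p = 0.928 by edgeR), and it turned to 0.024 without the 3 libraries with Rn45s above 10%. With 1 mouse left out it ran from −1.10 (without EnzR EVs replicate 2) to −0.13 (without PBS replicate 3). The span of Bco2 on the opposite strand overlaps exons of Il18 in GENCODE, and whether exons of Bco2 do was not examined. The strand setting of the counting is not given in the sources used here. If exons of both genes overlap, reads there may be counted for either gene or for neither.

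Among the restraints on interleukin-1, Il1rn encodes the secreted antagonist that occupies the receptor without signalling. It was at 60.5, 93.0 and 90.7 TMM CPM in the PBS mice, at 69.7, 74.2 and 69.3 in the EnzR EVs mice, and at 83.1, 104 and 88.1 in the EnzR EVs + HDL NPs mice. The EnzR EVs mice were tightly grouped, and all 3 lay below every mouse that also received HDL NPs. Between them the log2 fold change was 0.37 (SE 0.191, adjusted p = 0.468 by edgeR, exact permutation p = 0.10, the smallest that 3 against 3 can give). Aim2 and Il1rn were the 2 of 9 genes whose mice lay all above in this comparison, where 8.99% of all genes did. Against PBS, Il1rn differed by −0.20 in EnzR EVs mice and by 0.17 in EnzR EVs + HDL NPs mice, and PBS replicate 1 was the lowest of all 9 mice. The first value ran from −0.37 (without PBS replicate 1) to −0.069 (without PBS replicate 2) with 1 mouse left out, and the second was −0.00093 without the libraries rich in Rn45s.

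Il1r2, the decoy receptor that binds interleukin-1 without passing on a signal, overlapped in all 3 comparisons. Its level was 88.4, 137 and 132 TMM CPM in the PBS mice, 79.6, 152 and 98.4 in the EnzR EVs mice, and 116, 148 and 138 in the EnzR EVs + HDL NPs mice. Both the highest and the lowest of the 9 mice were EnzR EVs mice, and the 3 lowest values were those of the 3 libraries rich in Rn45s. The log2 fold changes were −0.10, 0.17 and 0.27 in the order of the comparisons above, with adjusted p-values by edgeR between 0.619 and 1.00. All 3 signs turned without those libraries (0.19, −0.0011 and −0.19). The non-coding gene Gm16894 overlaps Il1r2 on the opposite strand and is counted separately, with the same limit as for Il18.

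Nlrp3 and Aim2 were the only ones of the 9 genes with an unadjusted edgeR p under 0.05, and they differed in which group stood apart. Nlrp3, which responds to potassium loss and membrane damage, was at 138, 134 and 133 TMM CPM in the PBS mice, 104, 93.5 and 107 in the EnzR EVs mice, and 105, 138 and 167 in the EnzR EVs + HDL NPs mice. The PBS mice lay close together (SD 2.65), the EnzR EVs mice all lay below them, and the EnzR EVs + HDL NPs mice spread across both. The log2 fold change between EnzR EVs and PBS was −0.41 (SE 0.180, unadjusted p = 0.0448, adjusted p = 0.928 by edgeR). Nlrp3 was the only one of the 9 genes without overlap in this comparison, where 4.52% of all genes lay all below.

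With HDL NPs added to EnzR EVs, Nlrp3 differed by 0.43 (SE 0.180, unadjusted p = 0.0358, adjusted p = 0.461 by edgeR). These groups overlapped, since EnzR EVs + HDL NPs replicate 1 lay just under the highest EnzR EVs mouse. Against PBS, EnzR EVs + HDL NPs mice differed by 0.023 with an interval of −0.37 to 0.42. Nlrp3 kept its sign between EnzR EVs and PBS in each of 14 other settings (−0.59 to −0.34) and with each mouse left out (−0.46 to −0.33). It was −0.51 without the libraries rich in Rn45s, where the level of Nlrp3 showed no gap (104 to 138 TMM CPM against 93.5 to 167 in the other 6).

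Aim2, the sensor of double-stranded DNA in the cytosol, stood higher in EnzR EVs + HDL NPs mice than in every other mouse. It was at 21.6, 23.0 and 26.2 TMM CPM in the PBS mice, 18.7, 24.7 and 21.2 in the EnzR EVs mice, and 33.8, 31.5 and 28.4 in the EnzR EVs + HDL NPs mice. The gap to the nearest mouse was 2.16 TMM CPM against PBS and 3.61 against EnzR EVs. The log2 fold change was 0.40 against PBS (SE 0.174, unadjusted p = 0.0431, adjusted p = 1.00 by edgeR) and 0.52 against EnzR EVs (SE 0.178, unadjusted p = 0.0148, adjusted p = 0.461 by edgeR). Aim2 was the only one of the 9 genes whose mice lay all above in the comparison with PBS, where 6.96% of all genes did.

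The positive sign of Aim2 in EnzR EVs + HDL NPs mice held in every setting tried, at 0.35 to 0.45 against PBS and 0.33 to 0.73 against EnzR EVs when no single mouse was left out. Between EnzR EVs and PBS it differed by −0.12 with an interval of −0.51 to 0.28. The 3 libraries rich in Rn45s were the 3 lowest for Aim2 too (18.7 to 21.6 TMM CPM against 23.0 to 33.8), and without them the value against EnzR EVs was 0.33. The span of Cadm3 on the opposite strand overlaps exons of the GENCODE model of Aim2, with the limit given for Il18. That model starts at base 173350879 of chromosome 1, upstream of the RefSeq window printed above. Its length was used for the level per kilobase. The genes whose pattern over the 9 libraries was most like that of Aim2 were Plekhn1 (r = 0.96), the interferon-induced GTPase gene Mx1 (0.95), Cntln (0.94), Elf2 (0.94) and Asah2 (0.94). Those most like Il1b were Vti1b (0.90), 1110007C09Rik (0.89), Parp16 (0.88), Fuca1 (0.88) and Ccndbp1 (0.87). These are Pearson correlations of log2 TMM CPM over libraries that share group, depth and Rn45s share. Without the 2 libraries with the lowest totals, 0 of the 10 stayed among the 5 most alike. Their r there was 0.83 (Parp16) to 0.92 (Fuca1) with Il1b and 0.89 (Asah2) to 0.94 (Mx1) with Aim2. Without the lowest and the highest mouse of each gene instead, r was 0.57 to 0.81 with Il1b and 0.87 to 0.94 with Aim2.

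**Figure D2:**
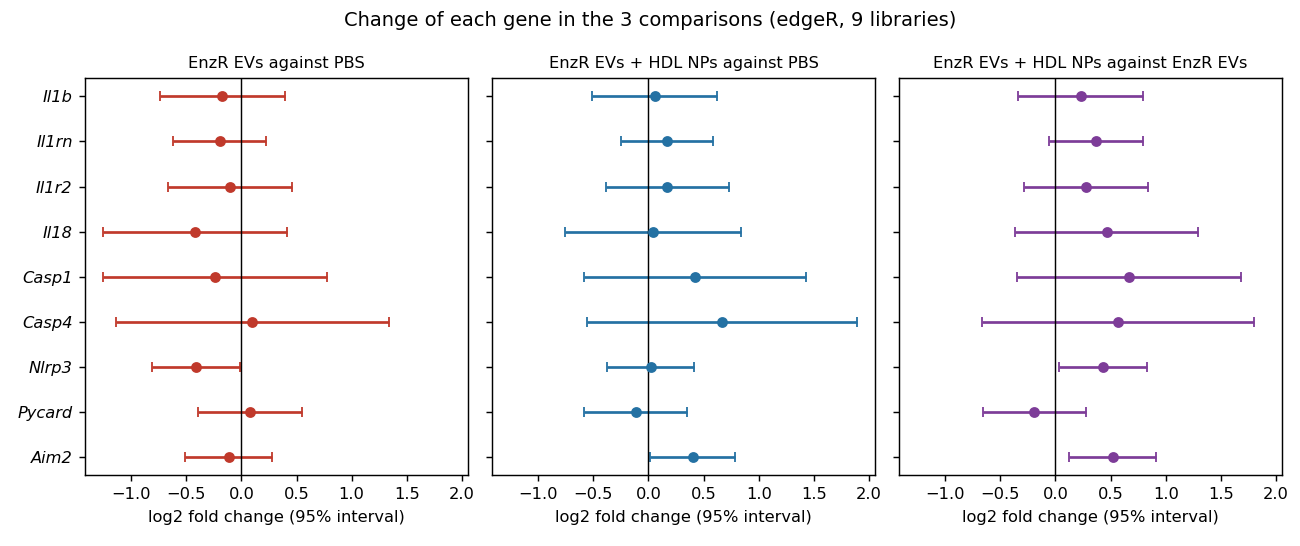
Log2 fold change (x axis) of each gene (y axis) with its 95% interval in the 3 comparisons, from edgeR's fit to 9 libraries. The intervals of Nlrp3 (EnzR EVs against PBS), Aim2 (EnzR EVs + HDL NPs against PBS), and Nlrp3 and Aim2 (EnzR EVs + HDL NPs against EnzR EVs) do not include 0, and none of these passes adjustment over all genes.

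Pycard, the adaptor that links NLRP3 and AIM2 to caspase-1, was the steadiest of the 9, with 1.59-fold between its lowest and highest mouse. It was at 69.5, 53.3 and 52.2 TMM CPM in the PBS mice, 46.6, 73.2 and 62.5 in the EnzR EVs mice, and 63.8, 51.4 and 46.1 in the EnzR EVs + HDL NPs mice. Its groups overlapped in all 3 comparisons, with log2 fold changes of 0.077, −0.11 and −0.19. It was the 1 gene of the 9 on the lower side in both comparisons of EnzR EVs + HDL NPs mice. Its level ran against that of Nlrp3 (r = −0.52 over 9 libraries and −0.99 over the 7 without the 2 lowest totals), a description of libraries that share depth and group.

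The 2 caspases varied most between mice. Casp1, which cuts the cytokine precursors, was at 29.2, 54.5 and 54.2 TMM CPM in the PBS mice, 11.5, 65.1 and 35.2 in the EnzR EVs mice, and 71.8, 69.3 and 45.2 in the EnzR EVs + HDL NPs mice. Casp4, also known as caspase-11 and the sensor of intracellular lipopolysaccharide, was at 11.3, 27.4 and 33.8, at 4.94, 46.6 and 21.8, and at 47.4, 40.8 and 28.7 in the same order. For both genes the EnzR EVs group held the lowest mouse and a mouse within the range of the EnzR EVs + HDL NPs group, and EnzR EVs + HDL NPs replicate 3 lay below the highest PBS mouse. The groups overlapped in every comparison.

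The fitted difference between EnzR EVs + HDL NPs and EnzR EVs was 1.59-fold for Casp1 (log2 0.67, SE 0.459, adjusted p = 0.531 by edgeR) and 1.48-fold for Casp4 (log2 0.57, SE 0.557, adjusted p = 0.640 by edgeR). Without the 3 libraries with Rn45s above 10% the same values were −0.071 and −0.26. Against PBS the EnzR EVs + HDL NPs mice differed by 0.43 for Casp1 and 0.67 for Casp4, and by 0.19 or more for Casp1 in each setting. The span from the lowest to the highest mouse was 6.23-fold for Casp1 and 9.60-fold for Casp4, both from EnzR EVs replicate 1, where the counts were 21 and 9, to EnzR EVs + HDL NPs replicate 1. The 2 neighbours had r = 0.98 over the 9 libraries and 0.88 over the 6 with little Rn45s, and the ratio of Casp4 to Casp1 lay between 0.386 and 0.716 in all mice. Their sequence identity was not examined here, and reads shared by the 2 paralogs were not assessed.

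In the 3 libraries with Rn45s above 10%, 6 of the 9 genes lay below all other libraries, as did 17.9% of all genes tested. These libraries also had the 3 lowest totals (2575776 to 8554487 counts, against 13231038 or more), so Rn45s and depth cannot be told apart. Casp1 was there at 11.5 to 35.2 TMM CPM against 45.2 to 71.8 in the other 6, and Casp4 at 4.94 to 21.8 against 27.4 to 47.4. Il1rn (60.5 to 69.7 against 74.2 to 104), Il1r2 (79.6 to 98.4 against 116 to 152), Il18 (3.84 to 5.98 against 7.96 to 11.8) and Aim2 were split in the same way. Il1b, Nlrp3 and Pycard overlapped between the 2 sets of libraries.

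**Figure D3:**
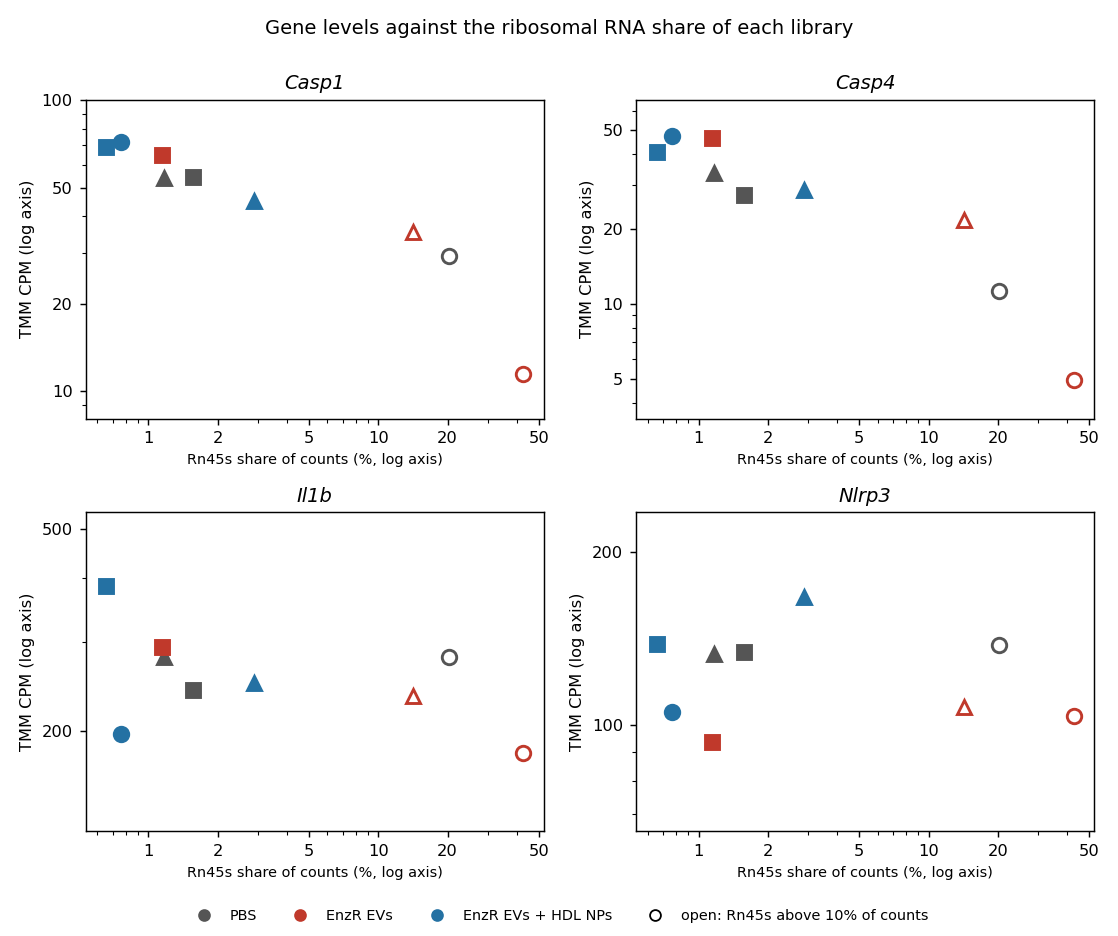
TMM CPM of Casp1, Casp4, Il1b and Nlrp3 (y axes, log scale) against the share of counts on Rn45s (x axes, %, log scale), 1 point per library, coloured by group, with shapes for replicate number (circle 1, square 2, triangle 3). The 3 open points, at 14.2% to 42.7% Rn45s, are the lowest for Casp1 and Casp4 and lie among the other points for Nlrp3.

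The summed level of 7 markers of mature neutrophils was 23477 to 74360 TMM CPM in PBS mice, 9502 to 81408 in EnzR EVs mice and 44978 to 101875 in EnzR EVs + HDL NPs mice, and was lowest in the 3 libraries rich in Rn45s. S100a8 and S100a9, which made up 41.8% to 88.5% of this sum, set that order. The other 5 markers (Cxcr2, Retnlg, Mmp8, Mmp9 and Csf3r) ran only from 5527 to 12205 TMM CPM and their sum did not separate those libraries, with 8785 in EnzR EVs replicate 3 and 8204 in EnzR EVs + HDL NPs replicate 1. Mmp8 among them did, at 542 to 1262 TMM CPM in the 3 libraries rich in Rn45s and 2149 to 3458 in the other 6. Casp1 had r = 0.99 with S100a8 and S100a9 and 0.84 with the other 5 markers over 9 libraries, and Casp4 had 0.96 and 0.81. Without the 2 libraries with the lowest totals, the values with the other 5 markers were 0.24 for Casp1 and −0.013 for Casp4. In the same libraries they were 0.30 for Il18 and −0.023 for Aim2 (0.70 and 0.57 over 9). Those of Il1rn and Il1r2 were 0.76 and 0.67 there (0.77 and 0.89 over 9). For Nlrp3, r over 9 libraries was 0.18 with S100a8 and S100a9 and 0.40 with the other 5 markers. The summed 7 monocyte markers had r = 0.82 with Casp1, 0.74 with Casp4, 0.72 with Il18 and 0.63 with Aim2 over 9 libraries. Without the 2 lowest totals these were 0.89, 0.87, 0.62 and 0.51. Without the 2 libraries farthest out in this sum they were 0.33, 0.21, 0.097 and 0.13. Il1rn and Il1r2 had 0.20 and 0.52 over 9 libraries. The part of Rn45s, of depth and of neutrophil or monocyte content in the levels of Casp1, Casp4, Il1r2, Il18, Il1rn and Aim2 was not tested.

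The wider pathway was read from a list of 68 gene symbols, of which 62 were counted and 55 tested. The list holds Il36a, Il36b, Il36g, Il36rn and Gsdme beside their older symbols Il1f6, Il1f8, Il1f9, Il1f5 and Dfna5. Only the older symbols of these genes were counted, and Irgb10 was not found under that symbol. None of the 55 was called by edgeR or DESeq2 in any comparison, and 9.09%, 9.09% and 10.9% had an unadjusted edgeR p under 0.05, beside 3.47%, 2.13% and 10.6% of all genes. Between EnzR EVs and PBS, 20 of the 55 were on the higher side and 35 on the lower (median −0.12). In EnzR EVs + HDL NPs against PBS mice, 40 were higher and 15 lower (median 0.15), and the mice lay all above for 18 (32.7%, beside 6.96% of all genes). Against EnzR EVs mice, 43 were higher and 12 lower (median 0.29), and the mice lay all above for 10 (18.2%, beside 8.99%). Without the 3 libraries rich in Rn45s the counts were 30 and 25, 35 and 20, and 35 and 20, with medians of 0.024, 0.10 and 0.05.

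The other sensors were mostly on the side on which Aim2 was found. Of 12 tested sensor genes, which include the NAIP and NLR receptors of bacterial proteins, 10 were on the lower side between EnzR EVs and PBS. In both comparisons of EnzR EVs + HDL NPs mice, 11 of the 12 were on the higher side, with medians of 0.29 against PBS and 0.47 against EnzR EVs. Without the libraries rich in Rn45s the counts on the higher side were 8, 11 and 7 of 12. The IL-1 family ligands, decoys and receptors were divided 4 to 6, 5 to 5 and 5 to 5 between the higher and the lower side, and 2 to 8, 4 to 6 and 6 to 4 without those libraries. The lists were not tested against each other. Il1a, which encodes interleukin-1 alpha, was at most 1.72 TMM CPM in any mouse.

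Guanylate-binding protein genes, whose products open pathogen vacuoles and promote caspase-11 and AIM2 activation, held the largest positive value of the list in both comparisons with PBS, that of Gbp2. Between the EnzR EVs groups the largest was that of Ifi205. Gbp2 was at 21.2 ± 5.48 TMM CPM (SD, n = 3) in PBS mice, 58.9 ± 44.7 in EnzR EVs mice and 87.9 ± 36.7 in EnzR EVs + HDL NPs mice. Its log2 fold change against PBS was 1.50 (SE 0.519, adjusted p = 0.928 by edgeR) with EnzR EVs and 2.04 (SE 0.524, adjusted p = 1.00 by edgeR) with HDL NPs added. The EnzR EVs + HDL NPs mice lay all above PBS, while EnzR EVs replicate 1 lay among the PBS mice. Gbp5 was at 3.17 to 4.75, 1.10 to 11.8 and 7.69 to 21.3 TMM CPM, with log2 fold changes against PBS of 0.86 and 1.77. Without the libraries rich in Rn45s the values against PBS were 2.12 and 1.85 for Gbp2 and 1.37 and 1.64 for Gbp5. Zbp1, a sensor of left-handed nucleic acid, differed by 0.94 between EnzR EVs and PBS, and by 1.63 without those libraries, a value that rests on 1 EnzR EVs mouse.

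Ifi205, an interferon-induced relative of Aim2, was at 0.880 to 2.92 TMM CPM in PBS mice, 0.549 to 5.38 in EnzR EVs mice and 4.68 to 8.95 in EnzR EVs + HDL NPs mice. Its log2 fold change was 1.63 against PBS and 1.00 against EnzR EVs, the latter 0.23 without the libraries rich in Rn45s. Ifi204, of the same family, differed by 0.88 between the EnzR EVs groups, and by 0.013 without those libraries. Reads of this gene family may be split between near-identical copies.

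On the lower side, Myd88, the adaptor of IL-1 and Toll-like receptors, was at 109 to 163 TMM CPM in PBS mice, 132 to 304 in EnzR EVs mice and 107 to 127 in EnzR EVs + HDL NPs mice. The EnzR EVs + HDL NPs mice lay all below the EnzR EVs mice (log2 −0.86, SE 0.282, adjusted p = 0.461 by edgeR), and the value was −0.21 without the libraries rich in Rn45s. Il1rl2, the receptor of interleukin-36, differed by −0.60 in the same comparison, and Panx1, a channel that releases ATP, by −0.61. Without those libraries the values were −0.83 for Il1rl2 and −0.18 for Panx1. P2rx7, the ATP-gated channel upstream of NLRP3, was at 17.9 to 24.3 TMM CPM in PBS mice, 10.6 to 19.8 in EnzR EVs mice and 14.7 to 19.3 in EnzR EVs + HDL NPs mice, with log2 fold changes of −0.60 and −0.39 against PBS. Between EnzR EVs and PBS the lowest values also included Nlrc3 (−0.59) and the protease inhibitor gene Serpinb9 (−0.52), at −0.30 and −0.40 without the libraries rich in Rn45s. In EnzR EVs + HDL NPs against PBS mice they included Panx1 (−0.50) and Naip1 (−0.44), which became −0.26 and 0.51 without the libraries rich in Rn45s, so that Naip1 changed sign.

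**Figure D4:**
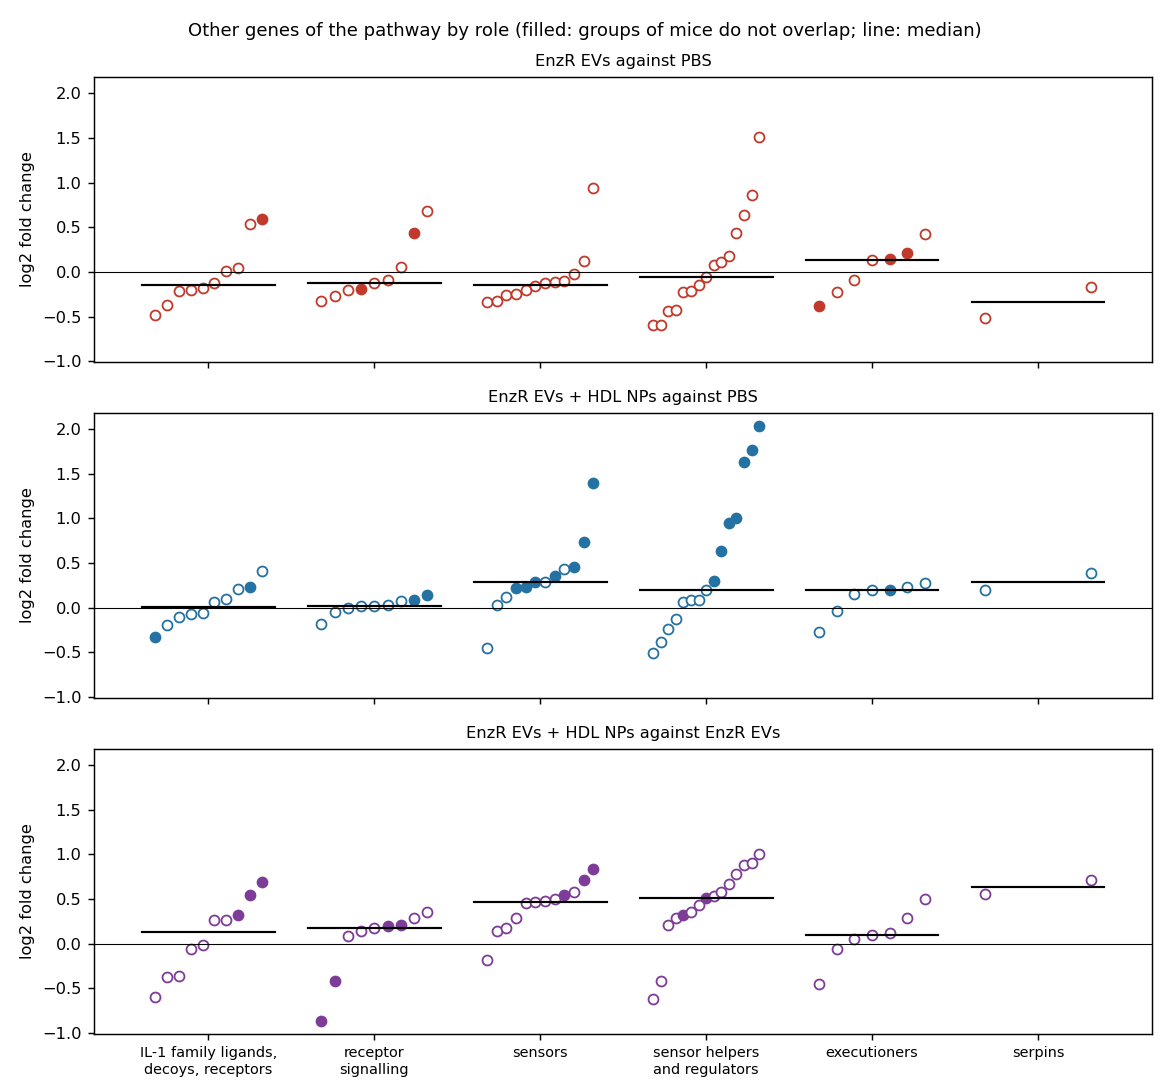
Log2 fold change (y axis) of the 55 tested pathway genes by role (x axis) in the 3 comparisons, 1 point per gene, filled where the groups of mice do not overlap, with a line at the median of each role. Sensors lie mostly above 0 in both comparisons of EnzR EVs + HDL NPs mice (11 of 12 each) and mostly below 0 between EnzR EVs and PBS (10 of 12).

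Lists of response genes were set beside the 9 genes. Interferon-stimulated genes (20, none of them among the 9) summed to 965 to 1320 TMM CPM in PBS mice, 1051 to 2387 in EnzR EVs mice and 1859 to 2156 in EnzR EVs + HDL NPs mice, and all 20 were on the higher side against PBS in both EV groups, where 46.5% and 48.9% of all genes were. Of the 20, edgeR called 0 in each comparison, and DESeq2 called 3 in EnzR EVs and 1 in EnzR EVs + HDL NPs mice against PBS (0.0876% and 0.0637% of all genes). Between the EnzR EVs groups, where Aim2 also stood apart, 11 of the 20 were higher and 9 lower, and the sums overlapped. The EnzR EVs + HDL NPs mice, in which Aim2 stood apart, all exceeded the PBS mice in this sum. NF-kB response genes (16) summed to 1479 to 1634 TMM CPM in PBS mice, 1274 to 1475 in EnzR EVs mice and 1129 to 1530 in EnzR EVs + HDL NPs mice, and 12 of the 16 were on the lower side in each comparison with PBS. The EnzR EVs mice all lay below the PBS mice in this sum, but only just (up to 1475 against 1479 or more), while for Nlrp3 the gap was wider (93.5 to 107 against 133 to 138). Zfp36 alone held 369 to 663 TMM CPM of the sum in EnzR EVs mice and 444 to 648 in PBS mice. Whether either response accounts for the levels of Aim2 or Nlrp3 was not tested.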

How the data were processed

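Stranded total RNA-seq libraries (single-end, 75 bp) of 9 mice were used, 3 per group by the sample labels, and 0 columns were left unmapped. Per gene, the authors deposited unnormalized read counts. Their steps, by the submitters' processing notes and the methods, were adapter trimming (cutadapt 1.13), removal of rRNA reads, STAR alignment (mm10) and HTSeq 0.6.1p1; DESeq2 is named too, and strand settings are not given in the sources used here. Counts were fitted in R 4.3.3 with edgeR 4.0.16 (TMM factors, default low-count filter, robust quasi-likelihood test on 9 libraries, 1 coefficient per group), adjusted by Benjamini-Hochberg over 12553 genes at 0.05. For single genes, a two-sided exact permutation test of log2 TMM CPM was added (prior count 2; smallest p 0.10). A mouse is the replicate. Fits were run on simulated counts with the same spread for every gene and no libraries rich in Rn45s, so their behaviour on such libraries was not tested. The 9 genes, the pathway list and the marker lists were chosen with earlier results of these data known, so their directions are no independent evidence. Named pathway genes are the 3 with the highest and the 3 with the lowest log2 fold change per comparison, and named like genes the 5 with the highest r. Positions came from GENCODE M21 (GRCm38) and start windows from RefSeq (GRCm38.p6), both matched by symbol for 9 of 9 genes. Alternatives were DESeq2 1.42.0, limma 3.58.1 (voom with and without sample weights), other scalings and filters, a replicate block, 6 libraries, and libraries left out. Total counts ran from 2575776 to 18110561, and floors of 3 counts cover counting error only, as reads carry no molecular identifiers.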

Additional observations from a re-analysis of the deposited data

How the results depend on the processing

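Adjusted p-values stayed at or above 0.05 for all 9 genes in all 3 comparisons under each setting tried. The lowest came from limma's voom with sample quality weights: 0.0508 for Il18 and 0.0559 for Il1rn between EnzR EVs and PBS, and 0.0538 for Aim2 between the EnzR EVs groups. The number of all genes past the threshold was 0 by edgeR and changed as follows. Between EnzR EVs and PBS it was 11 by DESeq2 (14 on all deposited genes, added after seeing the data). It was 1990 by limma's voom with sample quality weights and 1 with no filter on low counts. Without the 2 libraries with the lowest totals (EnzR EVs replicate 1 and PBS replicate 1) it was 5. With 1 mouse left out it was 0 to 2, the 2 being without PBS replicate 1. Between EnzR EVs + HDL NPs and PBS it was 8 by DESeq2 (2 on all genes), 10 with quality weights and 0 to 0 with 1 mouse left out. Between EnzR EVs + HDL NPs and EnzR EVs it was 1 by DESeq2 (1 on all genes), 653 with quality weights and 1 without the 2 lowest libraries. It was 1 with the 6 libraries of the comparison and 0 to 1 with 1 mouse left out. Leaving out the 3 libraries with Rn45s above 10% (added after seeing the data) leaves 1 EnzR EVs mouse, so no count is given for that setting. Of the 10 like genes, 0 stayed among the 5 most alike without the 2 lowest libraries, where their r was 0.83 to 0.94.

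Neither the labels nor the methods say what a replicate number shares. Over the 3 groups, 6 of 9 same-numbered pairs had a correlation of deviations above 0.1 (range −0.18 to 0.49), beside 6 of 18 differently numbered ones. Between PBS and EnzR EVs all 3 did (0.47, 0.49 and 0.13), although PBS replicate 3 was closer to EnzR EVs replicate 2 (0.43) than to its own number. The pair at 0.47, replicate 1 of each group, was also alike in being shallow and rich in Rn45s. PBS replicate 1 had 6006087 counts with 20.3% on Rn45s, and EnzR EVs replicate 1 had 2575776 with 42.7%. The part of depth and Rn45s in these correlations was not tested. Pairing of these groups is possible and was not settled. With the replicate block, 1 gene passed between EnzR EVs and PBS, Casp4 turned to −0.029 there, and Il1b turned to −0.012 between EnzR EVs + HDL NPs and PBS.

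Signs turned as follows, as log2 fold changes, and the cause was not tested. Without the 3 libraries with Rn45s above 10%, the values between EnzR EVs and PBS were 0.17 for Il1b, 0.19 for Il1r2, 0.024 for Il18, 0.26 for Casp1 and 0.013 for Aim2. Between EnzR EVs + HDL NPs and PBS they were −0.00093 for Il1rn, −0.0011 for Il1r2, −0.14 for Il18 and 0.030 for Pycard. Between the EnzR EVs groups they were −0.083 for Il1b, −0.19 for Il1r2, −0.16 for Il18, −0.071 for Casp1 and −0.26 for Casp4. Without the 2 lowest libraries, Il1b was 0.028 between EnzR EVs and PBS, and against PBS the EnzR EVs + HDL NPs values were −0.00067 for Il1rn, −0.00066 for Il1r2, −0.14 for Il18 and 0.029 for Pycard. With library size only, which moved the median of all genes by −0.15 in the first comparison and 0.21 in the last, Casp4 was −0.014 and Pycard −0.056 between EnzR EVs and PBS, and Pycard 0.016 between the EnzR EVs groups. With quality weights, Casp4 was −0.34 between EnzR EVs and PBS and Il18 −0.077 between EnzR EVs + HDL NPs and PBS. By voom, Nlrp3 was −0.0023 between EnzR EVs + HDL NPs and PBS.

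With 1 mouse left out, values between EnzR EVs and PBS ran from −0.39 to 0.078 for Il1r2, −0.85 to 0.13 for Casp1, −0.67 to 0.49 for Casp4, −0.052 to 0.23 for Pycard and −1.10 to −0.13 for Il18. Between EnzR EVs + HDL NPs and PBS they ran from −0.27 to 0.26 for Il1b, −0.0024 to 0.28 for Il1rn, −0.0025 to 0.29 for Il1r2, −0.14 to 0.34 for Il18, −0.14 to 0.19 for Nlrp3 and −0.25 to 0.028 for Pycard. Between the EnzR EVs groups Il1b ran from −0.11 to 0.42, Il18 from 0.21 to 1.14, Casp1 from 0.29 to 1.28 and Casp4 from 0.17 to 1.34, the last 3 highest without EnzR EVs replicate 2. EnzR EVs replicates 1, 2 and 3, PBS replicates 1, 2 and 3 and EnzR EVs + HDL NPs replicates 1, 2 and 3 each set at least 1 of these ends. Il18 and Casp4 have no value under a minimum of 10 counts in every library. Depth limits Il18 and Casp4 most, with 7 and 9 counts in EnzR EVs replicate 1.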
